A study of Mus musculus with 6 samples.

Results

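The cytosolic ribosomal proteins are the proteins of the 2 subunits of the ribosome outside mitochondria. Their genes were chosen by name alone: every record named Rps or Rpl with a number and an optional a, x, y or l, together with Rplp0, Rplp1, Rplp2 and Rpsa, and without records named as pseudogenes. That gave 88 of the 24602 genes in the deposited table, 35 named for the small and 53 for the large subunit. RNA was measured in the left ventricle of wild-type mice, in 3 samples after a sham operation and 3 samples after transverse aortic coarctation (TAC), which loads the ventricle with pressure, all taken 5 weeks later. The labels give no strain, sex or age, and do not say that each sample came from its own mouse, so p-values reflect how far these samples scatter, and that scatter may be technical. In bulk tissue, fewer cells of a type and less RNA per cell cannot be told apart.

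A ribosome holds 1 copy of almost every ribosomal protein, so their mRNAs are made at high and coordinated levels in all cells. Many of these mRNAs begin with a cytosine and a run of pyrimidines, the terminal oligopyrimidine (TOP) start, through which mTOR signalling and the protein LARP1 control how much of them is translated. Growth of the heart muscle under pressure needs more protein synthesis, and ribosome production is known to increase in such growth. Striated muscle also makes Rpl3l, a form of Rpl3, which sits close to the peptidyl transferase centre where peptide bonds form.

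The annotated starts are shown first, because the TOP start is the sequence element by which these mRNAs are known as a group. RefSeq promoter windows (GRCm38.p6) were matched for 64 of the 88 genes, with 76 windows. A TOP start was counted where the annotated first base was C and the next 4 were C or T. It was found for 14 of the 64 genes (21.9%), against 3.01% of 27025 genes in the same table. Below are 30 bases around the annotated start of 6 of the 14, 5′ to 3′ on the strand of the gene, with the C of the start and the pyrimidines that follow it in capitals. The first is Rps6 (chr4:86857353-86857382, minus strand), the small subunit protein phosphorylated by S6 kinase, followed by Rps18 (chr17:33955651-33955680, minus), Rpl28 (chr7:4792950-4792979, plus), Rpl35a (chr16:33056467-33056496, plus), Rpl38 (chr11:114668565-114668594, plus) and the stalk protein gene Rplp2 (chr7:141447636-141447665, plus).
Rps6: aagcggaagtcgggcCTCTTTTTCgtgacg
Rps18: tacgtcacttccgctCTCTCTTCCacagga
Rpl28: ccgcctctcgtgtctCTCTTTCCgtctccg
Rpl35a: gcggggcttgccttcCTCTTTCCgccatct
Rpl38: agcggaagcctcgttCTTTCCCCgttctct
Rplp2: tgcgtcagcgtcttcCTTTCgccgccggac

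Of the 6 genes that passed the test between the groups (below), 4 were matched, and none had the TOP letters at its annotated start. They are shown with the annotated first base in capitals, since the difference from the sequences above is visible at that base. They are Rpl23 (chr11:97782425-97782454, minus), Rpl26 (chr11:68901551-68901580, plus), Rpl5 (chr5:107900513-107900542, plus) and Rps24 at the first of its annotated starts (chr14:24490663-24490692, plus). Rpl3l (chr17:24727811-24727840, plus) is shown for comparison, at its more upstream start.
Rpl23: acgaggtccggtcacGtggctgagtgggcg
Rpl26: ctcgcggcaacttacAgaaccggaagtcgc
Rpl5: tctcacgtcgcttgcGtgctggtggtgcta
Rps24: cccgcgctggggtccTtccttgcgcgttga
Rpl3l: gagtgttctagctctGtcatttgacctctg
The missing letters say only that they are not at the annotated base. In the RNA data, the 13 tested genes with a TOP start had a median log2 fold change of 0.10 between TAC and sham, and the 48 matched and tested genes without one a median of 0.11.

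Motifs were searched on both strands of the windows, which reach from 250 bases before to 50 bases from the start on; none of the 4 motifs given here contains another. CCGGAAG, a word bound by ETS factors, was in the windows of 40.6% of the matched ribosomal protein genes and of 9.93% of all genes in the table. GGGCGG, the core of an Sp1 site, was in 60.9% against 38.2%. The TATA word TATAAA was in 12.5% against 15.7%, and CACGTG, the E-box bound by Myc, in 9.38% against 8.09%. To show where the ETS word lies, 115 bases of 4 promoters follow, each ending 15 bases into the transcript, with the word in capitals. Rpl26 (chr11:68901466-68901580, plus) is a gene that passed the test, while Rps3a1 (chr3:86142654-86142768, minus), Rpl31 (chr1:39367751-39367865, plus) and Rps18 (chr17:33955651-33955765, minus) did not pass.
Rpl26: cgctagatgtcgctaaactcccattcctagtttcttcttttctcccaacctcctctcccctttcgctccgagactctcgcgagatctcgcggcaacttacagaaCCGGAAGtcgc
Rps3a1: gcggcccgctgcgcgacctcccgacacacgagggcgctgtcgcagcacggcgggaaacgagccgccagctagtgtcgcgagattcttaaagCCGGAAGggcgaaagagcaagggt
Rpl31: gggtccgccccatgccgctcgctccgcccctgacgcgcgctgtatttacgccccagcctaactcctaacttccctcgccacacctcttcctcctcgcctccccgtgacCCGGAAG
Rps18: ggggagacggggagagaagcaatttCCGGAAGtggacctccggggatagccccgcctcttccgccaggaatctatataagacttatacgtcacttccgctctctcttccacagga
The word lies within the first bases of the transcript in Rpl26 and Rpl31 and upstream of the start in Rps3a1 and Rps18. A match describes the letters only. The 25 tested genes with the ETS word had a median log2 fold change of 0.14 and the 36 without it 0.08.

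The genes lie on 19 chromosomes, 14 of them on chromosome 7 and 4 on X. Of the 88, 83 are annotated as protein-coding. The other 5 (Rps3a2, Rps3a3, Rps4l, Rpl6l and Rpl32l) are annotated as processed pseudogenes, copies made from a spliced mRNA, although their names carry no such mark. These genes are short, with a median principal mRNA of 751 bases against 2294 over all tested genes. Small nucleolar RNAs, which guide the chemical modification of ribosomal RNA, are encoded inside 30 of the 88 genes (34.1%), 57 of them in all, against 1.45% of 16286 protein-coding genes in the table.

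The libraries held between 64023153 and 69992502 estimated counts. Genes of the mitochondrial chromosome took 14.8% to 19.2% of them in sham and 22.6% to 29.2% in TAC. Levels below are in CPM, counts relative to the library total, scaled by TMM, edgeR's correction for library composition. The 10 ventricular cardiomyocyte markers, among them the myosin genes Myh6 and Myl2, were all present, and summed to between 93195 and 104891 CPM in sham and to 92325, 97930 and 66539 CPM in TAC replicates 1, 2 and 3. The 6 fibroblast markers had a median log2 fold change of 0.93 and 2 of them passed as higher. Their sum, 2474 to 2600 CPM in sham and 2370 to 3051 CPM in TAC, is mostly Gsn, which was lower in TAC (1861 to 1918 CPM against 2070 to 2238 CPM). Dcn measured 68.7, 45.4 and 71.2 CPM in sham, and 143, 109 and 209 CPM after TAC. The 5 red blood cell markers had a median of 0.99 with none past the adjusted threshold in edgeR (460 to 1492 CPM in sum against 978 to 2302 CPM), and the 6 endothelial markers one of 0.39 with 1 higher (714 to 851 CPM against 716 to 1048 CPM). Of the 4 atrial cardiomyocyte markers 1 passed as higher, while the median over all 4 was -1.16. Those given next are among the others and do not stand for the whole list. Myl7 measured 6.99, 57.6 and 41.7 CPM in sham and 42.0, 1.82 and 8.09 CPM in TAC. Myl4 measured 16.2, 155 and 84.9 CPM in sham and 80.4, 6.75 and 18.0 CPM in TAC. The 4 smooth muscle, 4 pericyte and 4 tested macrophage markers had medians of 0.55, 0.11 and 0.40, with 1 higher in each list. The part of all these markers in the results below was not tested. Markers of lymphocytes, adipocytes, skeletal muscle and mesothelium summed to under 10 CPM in every library.

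Ribosomal protein genes took 1.43%, 1.91% and 1.96% of the estimated counts in sham replicates 1 to 3 and 1.57%, 1.76% and 1.36% in TAC replicates 1 to 3. The means were 1.77 ± 0.289% and 1.56 ± 0.203% (SD, n = 3 each), and the groups overlapped. The 95% Wilson intervals are no wider than 0.00339 percentage points either way and cover counting error only. Outside the mitochondrial chromosome the shares were 2.12 ± 0.305% in sham and 2.13 ± 0.342% in TAC. As a share of summed FPKM, in which counts are divided by gene length, they were 1.95 ± 0.391% in sham and 1.48 ± 0.119% in TAC, with overlapping groups. The size and direction of the difference thus depend on the denominator. On the first 2 it is smaller than either SD, and on summed FPKM it is larger.

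The level of the whole group moved from library to library more than between sham and TAC. The 84 genes whose FPKM averaged at least 1 over the libraries were tested. For each of them the log2(CPM + 0.5) in a library was set against the gene's own mean over the 6 libraries. The median over genes was -0.33, 0.01 and 0.18 in sham replicates 1 to 3, and 0.10, 0.33 and -0.27 in TAC replicates 1 to 3. Sham replicate 1 and TAC replicate 3 were the low libraries of their groups. Sham replicate 1 was the lowest of the 6 libraries for 41 genes and TAC replicate 3 for 28, while TAC replicate 2 was the highest for 56. Over all 8795 tested genes the same medians lay between 0.01 and 0.02 in every library. Each library's smoothed trend over GC content and length, fitted on all tested genes, had a median over the ribosomal protein genes of -0.17, 0.04 and 0.09 in sham and 0.08, 0.23 and -0.19 in TAC. The trend was therefore also lowest in sham replicate 1 and TAC replicate 3 and highest in TAC replicate 2; its part in the library levels was not tested.

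**Figure D1:**
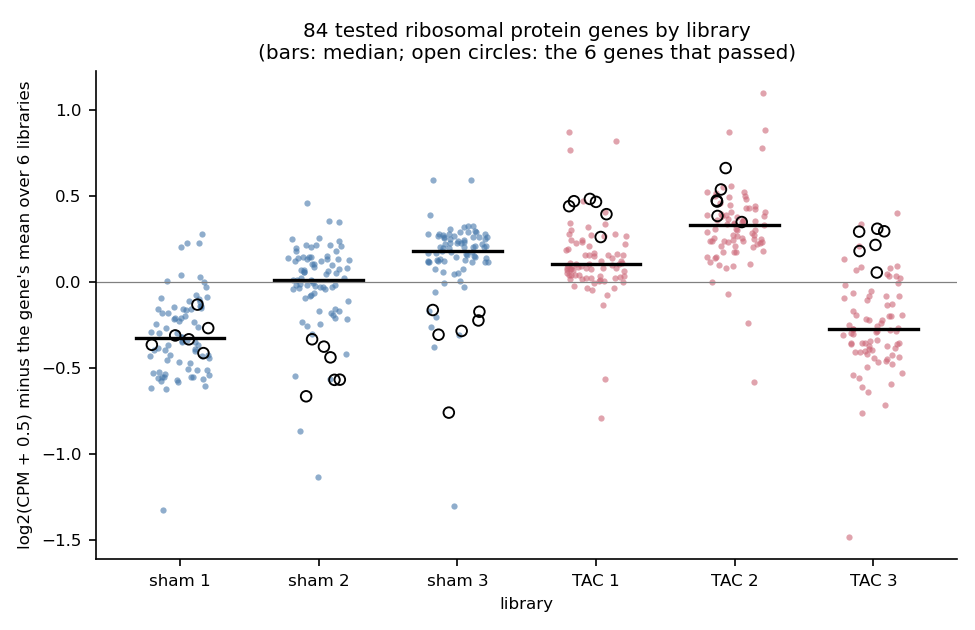
Deviation of each of the 84 tested ribosomal protein genes from its own mean over the 6 libraries, in log2(CPM + 0.5) units, by library (sham blue, TAC red). Bars are medians, from -0.33 in sham replicate 1 to 0.33 in TAC replicate 2, and open circles are the 6 genes that passed the test, which lie below 0 in every sham library and above 0 in every TAC library.

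Between the groups, 6 ribosomal protein genes rose in TAC, none fell, and 78 of the 84 tested did not pass. Those that rose were Rps24 of the small subunit and Rpl23, Rpl5, Rpl21, Rpl7 and Rpl26 of the large subunit, each by 1.54- to 1.92-fold. The quasi-likelihood test of edgeR was used, and a gene passed at a p under 0.05 after Benjamini-Hochberg adjustment over all 8795 tested genes. By that test 4.71% of all tested genes were higher in TAC and 2.29% lower, against 6 of 84 (7.14%) and 0 of 84 here. The median log2 fold change was 0.10, against -0.01 over all tested genes. Of the 84, 57 had a positive fold change (67.9%), against 49.2% of all genes, and 53 lay within 0.25 of 0. By subunit, 1 of 34 small and 5 of 50 large subunit genes rose, with medians of 0.10 and 0.09.

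All 3 TAC libraries lay above all 3 sham libraries for 10 genes and below them for 2, against 17.7% and 17.1% of all tested genes. At an unadjusted p under 0.05, 11 were higher and 2 lower, against 16.2% and 11.9% of all tested genes. Leaving out single libraries changed the number that passed as higher in edgeR. It was 11 without TAC replicate 3, against 9.24% of all genes, and 2 without sham replicate 1, against 3.35%. It was 0 without sham replicate 2 (0.102% of all genes), sham replicate 3 (0.341%), TAC replicate 1 (0.375%) or TAC replicate 2 (1.13%). In these 4 fits 9 to 18 ribosomal protein genes were higher at an unadjusted p under 0.05 in edgeR. The share of all genes at that threshold was not counted for these fits, and with all 6 libraries it was 16.2%. The median log2 fold change was -0.01 without sham replicate 1, -0.03 without TAC replicate 2 and 0.26 without TAC replicate 3.

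**Figure D2:**
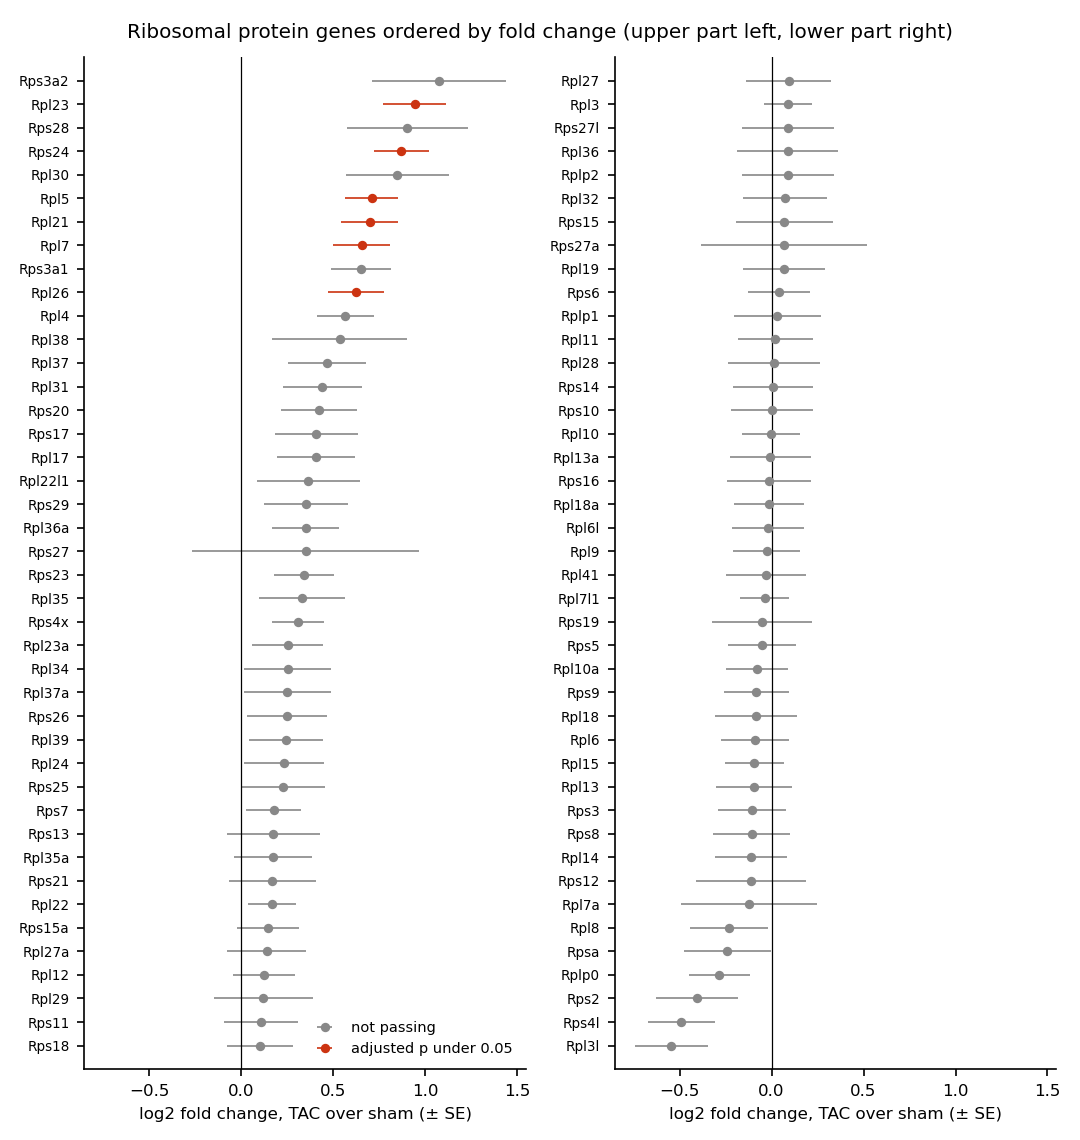
Log2 fold change of TAC over sham (x axis, ± SE) for the 84 tested ribosomal protein genes, ordered from the highest (top left) to the lowest (bottom right). The 6 genes that passed (red) lie between 0.62 and 0.94, and the range over all 84 is -0.54 for Rpl3l to 1.08 for Rps3a2.

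Rps24, a small subunit protein whose gene is one of those mutated in Diamond-Blackfan anaemia, measured 94.2, 74.8 and 96.0 CPM in sham replicates 1 to 3 and 166, 173 and 146 CPM in TAC replicates 1 to 3. Every TAC library lay well above every sham library. The log2 fold change was 0.87 ± 0.15 (SE; edgeR adjusted p = 0.0251). The gene lies on chromosome 14, from 24487125 to 24495858 on the plus strand of GRCm38.

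Rpl23 sits on the face of the large subunit that meets the small subunit. Its level was 30.9, 30.4 and 22.5 CPM in sham and 52.3, 61.1 and 47.7 CPM in TAC. The lowest TAC library was above the highest sham library, and the log2 fold change of 0.94 ± 0.17 (edgeR adjusted p = 0.0271) was the highest of the 6. Of the counts of Rpl23 and its 3 aligning pseudogene records, 40.0% were in those records, and the sum of all of them also rose (0.72 ± 0.15, edgeR adjusted p = 0.0316).

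Rpl5, which with Rpl11 and the 5S ribosomal RNA forms a particle of the large subunit that can also bind Mdm2, measured 80.4, 65.2 and 82.9 CPM in sham and 134, 127 and 113 CPM in TAC. The groups did not overlap (log2 fold change 0.71 ± 0.15, edgeR adjusted p = 0.0333). An opposite-strand record overlaps 24.3% of its exonic bases; the strand setting of the counting is unknown here. Its partner Rpl11 had a log2 fold change of 0.02 ± 0.21 and did not pass.

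Rpl7 of the large subunit measured 133, 97.8 and 119 CPM in sham and 201, 185 and 165 CPM in TAC (log2 fold change 0.65 ± 0.16, edgeR adjusted p = 0.0451). Rpl26, found at the tunnel through which the new peptide leaves, measured 80.0, 79.4 and 91.4 CPM in sham and 136, 143 and 107 CPM in TAC (0.62 ± 0.15, edgeR adjusted p = 0.0469). In both genes every TAC library was above every sham library. For Rpl26 the lowest TAC library was TAC replicate 3, the library in which the ribosomal protein genes as a group were low.

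Of the 6, Rpl21 was the gene whose counts were most divided among copies. The record itself measured 11.8, 11.6 and 14.2 CPM in sham and 19.2, 22.2 and 19.6 CPM in TAC (log2 fold change 0.70 ± 0.16, edgeR adjusted p = 0.0387). Together with 51 aligning pseudogene records, which held 87.0% of the joint counts, it measured 93.1, 98.4 and 118 CPM in sham and 157, 155 and 138 CPM in TAC. The groups were still separate, but the sum did not pass (0.54 ± 0.14, edgeR adjusted p = 0.0552). Joined instead with the 11 records named as its pseudogenes, Rpl21 passed (0.68 ± 0.14, edgeR adjusted p = 0.0334). Whether the joined gene passed thus depended on how the records were chosen.

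**Figure D3:**
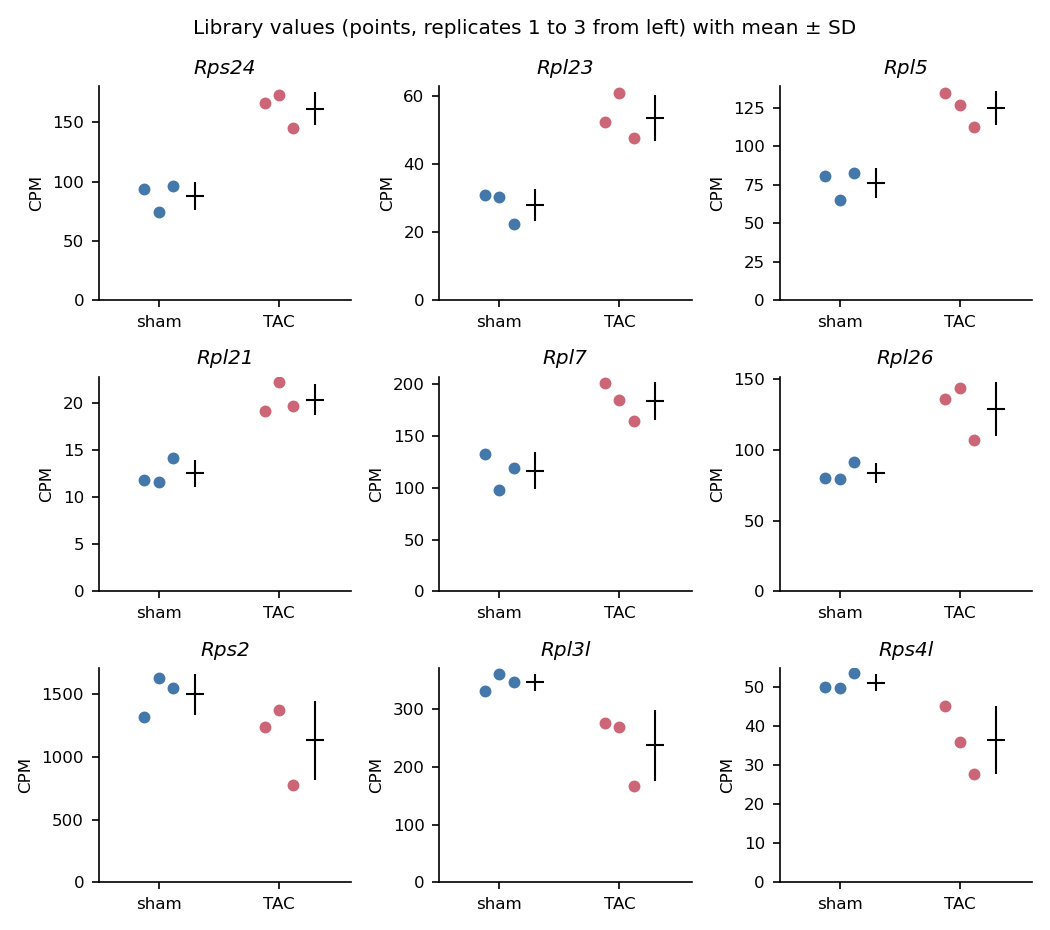
CPM in each library (points, replicates 1 to 3 from left to right within a group) with mean ± SD for the 6 genes that rose and for Rps2, Rpl3l and Rps4l, which did not pass; each y axis starts at 0. The groups are separate in every panel except Rps2, where TAC replicate 2 lies above sham replicate 1.

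Some genes with fold changes of the same size did not pass. Rps3a1, an early-assembling small subunit protein, measured 141, 108 and 132 CPM in sham and 210, 221 and 168 CPM in TAC (log2 fold change 0.65 ± 0.16, edgeR adjusted p = 0.0507). Rpl4, which lines the exit tunnel, went from 121 ± 19.8 to 179 ± 12.3 CPM (SD, n = 3; 0.57 ± 0.16, edgeR adjusted p = 0.0640). Rpl30 had a log2 fold change of 0.85 ± 0.28 and Rps28 of 0.90 ± 0.33, both with separate groups (edgeR adjusted p = 0.0942 and 0.118). The highest fold change of all was that of Rps3a2 at 1.08 ± 0.36, a record without a coding sequence that stayed between 0.876 and 3.07 CPM and whose groups overlapped (edgeR adjusted p = 0.10). DESeq2 called 11 genes higher, the 6 above with Rps3a1, Rpl4, Rpl30, Rps28 and Rps3a2, against 11.7% of all tested genes called higher. It called none lower, against 7.02% of all tested genes. At an unadjusted p under 0.05 in DESeq2 2 were lower, a threshold at which the share of all genes was not counted. Limma on log2(FPKM + 1) called Rpl23 and Rps24 higher, against 1.98% of all genes, and Rpl3l and Rps4l lower, against 3.84%. With library totals in place of TMM, edgeR called Rpl23 and Rps24 higher, against 1.79%, and without a filter on FPKM none, against 0.684% of all genes. With the replicate number as a block it called Rpl23, against 1.6% of all genes.

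The 6 genes that rose were poorer in G and C than the others, with a median of 46.2% of the principal mRNA against 52.2% in the 78 that did not pass. Across the 84 genes the log2 fold change went down as GC content went up (Pearson r = -0.51, Spearman rho = -0.54, n = 84 genes from the same 6 libraries). Across 8790 tested genes of all kinds r was -0.45. Split by GC content, the 28 poorest genes had a median log2 fold change of 0.28, the middle 28 one of 0.10 and the 28 richest one of -0.01, with 4, 2 and 0 genes that rose. After removal of the GC and length trends of each library, 3 genes rose, Rps24 (0.50, edgeR adjusted p = 0.0392), Rpl21 (0.74, 0.0272) and Rpl26 (0.56, 0.0314), against 2.71% of all genes. In that fit Rpl5 had a log2 fold change of 0.10 (edgeR adjusted p = 0.594), Rpl7 of 0.24 (0.225) and Rpl23 of 0.55 (0.107). With the replicate block as well none passed, against 1.16% of all genes. At an unadjusted p under 0.05 in edgeR 12 were higher in that fit, where the share of all genes was not counted. Fold change also went down with expression level across the 84 genes (r = -0.57 with the log2 of the mean CPM, rho = -0.58); over 8795 genes r was -0.17.

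**Figure D4:**
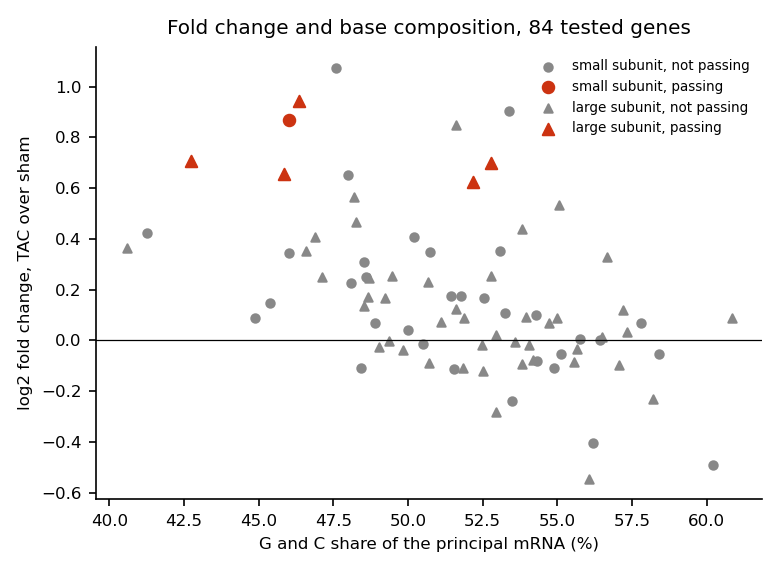
Log2 fold change of TAC over sham against the G and C share of the principal mRNA for the 84 tested ribosomal protein genes (circles small subunit, triangles large subunit; red, passed the test). The points slope downwards (r = -0.51), and none of the 28 richest genes, from 53.8% GC upwards, passed.

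At the other end of the order, no gene passed as lower. Rpl3l, the striated muscle form of Rpl3, had the lowest fold change. It measured 331, 361 and 347 CPM in sham and 276, 270 and 167 CPM in TAC, with every TAC library below every sham library and TAC replicate 3 far below the other two (log2 fold change -0.54 ± 0.20, edgeR adjusted p = 0.12). The sum of the ventricular cardiomyocyte markers was also lowest in TAC replicate 3, at 66539 CPM. Of these markers, Myl2, Myl3, Myh6, Tnni3, Actc1 and Mb were each lowest in that library. Ryr2, Ttn and Pln were at their highest there, at 453, 1142 and 1330 CPM. Tnnt2 was neither lowest nor highest there. The part of these markers in the level of Rpl3l was not tested. Rpl3 itself measured 172, 165 and 200 CPM in sham and 185, 197 and 190 CPM in TAC, with overlapping groups (0.09 ± 0.13, edgeR adjusted p = 0.708; the sign was negative with library totals, with limma and without a filter).

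To compare the forms, counts were taken per kilobase of the shortest principal transcript. The ratio of Rpl3l to Rpl3 was 1.89, 2.15 and 1.70 in sham and 1.47, 1.35 and 0.864 in TAC. Rpl3l was thus the more abundant mRNA in every library except TAC replicate 3. With deposited FPKM the ratios were 3.72, 4.23 and 3.35 in sham and 2.89, 2.65 and 1.70 in TAC, since FPKM divides by all annotated exons and Rpl3 has more of them. On either scale the log2 of the ratio was lower in TAC by a mean difference of -0.67, that is 0.627 times the sham ratio (exact 2-sided permutation p = 0.1, the smallest that 3 against 3 allows). Without TAC replicate 3 the difference was -0.44. Rpl3l lies on chromosome 17 from 24727820 to 24736143 and Rpl3 on chromosome 15 from 80077791 to 80091868 (GRCm38).

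Other forms were compared in the same way, per kilobase. Rps4l, annotated as a transcribed processed pseudogene and named after the small subunit gene Rps4x, measured 50.0, 49.6 and 53.5 CPM in sham and 45.2, 36.0 and 27.8 CPM in TAC (log2 fold change -0.49 ± 0.18, edgeR adjusted p = 0.127). Its ratio to Rps4x was 0.327, 0.317 and 0.316 in sham and 0.213, 0.171 and 0.165 in TAC. Every TAC ratio was below every sham ratio (log2 difference -0.82, exact 2-sided permutation p = 0.1, the smallest possible). Rps4x had a log2 fold change of 0.31 ± 0.14 (edgeR adjusted p = 0.200). Rpl7l1, a relative of Rpl7 that takes part in ribosome assembly, had a mean of 39.1 ± 0.781 CPM in sham, against 38.1 ± 4.25 CPM in TAC (SD, n = 3). Its ratio to Rpl7 was also lower in every TAC library (0.263, 0.362 and 0.285 against 0.172, 0.201 and 0.181, log2 difference -0.71, exact permutation p = 0.1), with Rpl7 the gene of that pairing that rose. In the pairs with separate ratios the first gene is the richer in G and C. The values are 56.1% for Rpl3l and 51.9% for Rpl3, 60.2% for Rps4l and 48.5% for Rps4x, and 49.8% for Rpl7l1 and 45.8% for Rpl7. No ratio was taken with the GC trends removed, and the part of GC content in these ratios was not tested.

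**Figure D5:**
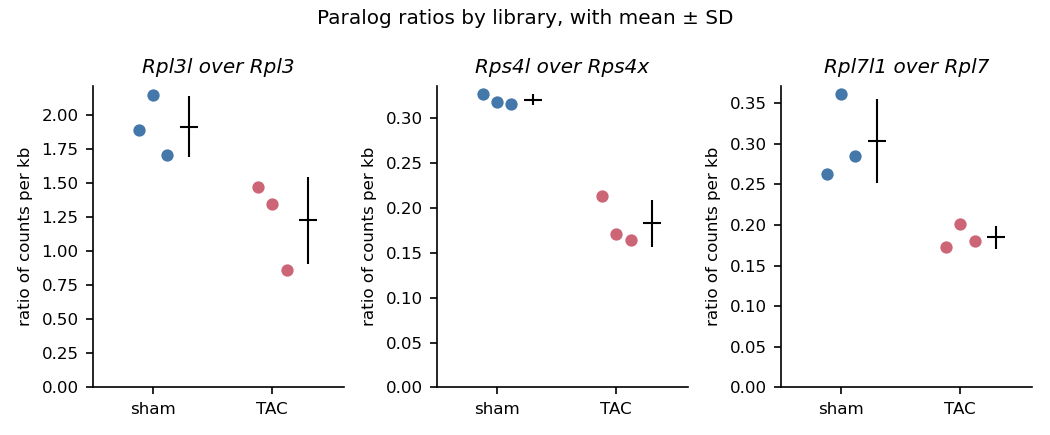
Ratio of Rpl3l to Rpl3, Rps4l to Rps4x and Rpl7l1 to Rpl7 in each library, from counts per kilobase of the shortest principal transcript (points, replicates 1 to 3 from left to right; mean ± SD; y axes start at 0). The TAC points lie below the sham points in all 3 panels, and TAC replicate 3 at 0.864 is the lowest for Rpl3l.

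The remaining forms had overlapping ratios. Rpl22l1 stood at 0.0243 ± 0.00291 of Rpl22 in sham and 0.0285 ± 0.0105 in TAC (exact permutation p = 0.7). Rps27l stood at 0.332, 1.5 and 0.446 of Rps27 in sham and 0.383, 0.372 and 1.32 in TAC (exact permutation p = 0.8). Rps27 itself ranged from 9.18 CPM in TAC replicate 3 to 49.4 CPM in TAC replicate 2. Rpl36al, outside the naming rule, stood at 0.779 ± 0.191 of Rpl36a in sham and 0.941 ± 0.0971 in TAC (exact permutation p = 0.2). The forms known from male germ cells were close to absent: Rpl39l had 12 estimated counts in sham replicate 2 and 0 in the other 5 libraries, and Rpl10l had 2 in TAC replicate 3 and 0 in the other 5. A count of 0 allows up to 0.0421 to 0.0523 CPM, depending on the library. With Rps3a3 and Rpl32l, these were the 4 genes below the mean FPKM of 1 and not tested.

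The most abundant mRNAs per kilobase were those of Rps2, at the mRNA entry of the small subunit, and Rplp0, the base of the stalk that receives elongation factors. Rps2 measured 1318, 1634 and 1554 CPM per kilobase in sham and 1243, 1378 and 781 in TAC. Rplp0 measured 1029, 1299 and 1312 in sham and 1037, 1090 and 863 in TAC. Rps2 was above Rplp0 in every library except TAC replicate 3. Next came Rpsa, also known as the laminin receptor, at 778 over all libraries, then Rps15 at 769, Rps14 at 711, Rpl13 at 661 and Rpl8 at 612 CPM per kilobase; the ranges of these neighbours over libraries overlapped.

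The 81 tested genes annotated as protein-coding spanned from 4.30 CPM per kilobase for Rpl22l1 to 1318 for Rps2, with a median of 183. Rps2, Rplp0 and Rpsa together held 24.1% of all counts of ribosomal protein genes and the 10 most abundant held 43.5%. The order of levels was nearly the same in all libraries, with rank correlations between pairs of libraries from 0.960 to 0.987 over 84 genes. The lowest tested genes were Rps3a2, Rpl22l1, Rps20 (10.8), Rpl17 (17.6) and Rpl21 (18.3 CPM per kilobase). The value of Rps20 is divided by a principal transcript of 3706 bases, although its coding sequence has 357. Aligning pseudogene records, left out of these levels, held 92.0% of the joint counts for Rpl17 and 87.0% for Rpl21. Such low values therefore need not mean few mRNA molecules.

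The 3 most abundant genes had negative fold changes, none of which passed. In CPM, Rps2 measured 1315, 1631 and 1551 in sham and 1241, 1376 and 779 in TAC (log2 fold change -0.41 ± 0.22, edgeR adjusted p = 0.274). Rplp0 had -0.28 ± 0.17 (edgeR adjusted p = 0.307) and Rpsa -0.24 ± 0.24 (0.554), all with TAC replicate 3 lowest. Rplp1 and Rplp2, which form the arms of the stalk, had 0.03 ± 0.24 and 0.09 ± 0.25, with signs that turned negative with library totals, with limma and without a filter. Rps15 had 0.07 ± 0.26 and turned negative under the same settings.

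Many ribosomal protein genes share sequence with processed pseudogenes, and reads can be divided between the copies. In the table, 671 pseudogene records aligned to a ribosomal protein mRNA at 90% identity or more over at least 70% of the record. They held 9.54% to 10.4% of the joint counts of a sham library, and 10.2% to 11.0% of those of a TAC library. For 27 of the 84 tested genes they held at least 10%, and for 4, at least 50%: Rpl17 (92.0%), Rpl21 (87.0%), Rpl7a (72.8%) and Rps12 (60.0%).

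Rps27a, which encodes a ribosomal protein fused to ubiquitin, is an example of counts spread over several records. The record measured 40.6, 40.6 and 49.1 CPM in sham and 23.1, 86.8 and 26.6 CPM in TAC (log2 fold change 0.07 ± 0.45). Estimated counts of its pseudogene record Rps27a-ps2 were 861, 822 and 1305 in sham replicates 1 to 3, and after TAC 2760, 714 and 2432. They were high in the TAC libraries where Rps27a was low. Joined with its aligning records it measured 56.6, 56.3 and 76.3 CPM in sham and 85.9, 102 and 71.4 CPM in TAC (0.46 ± 0.19, edgeR adjusted p = 0.150). Rps12 went from -0.11 ± 0.30 to 0.32 ± 0.17 when joined, and neither passed. With the aligning records joined, 7 ribosomal protein genes rose, against 5.16% of all genes. They were the 5 other than Rpl21, with Rps3a1 (edgeR adjusted p = 0.0484) and Rpl30 (0.0368). With records joined by name, 7 rose as well, and 436 genes of all kinds were called higher. Those 7 were the 6 of the main analysis, Rpl21 among them, with Rps3a1 (edgeR adjusted p = 0.0497). Rpl30 did not pass there (0.0641).

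Other genes of translation were counted from the same fit. Over 201 tested genes in 7 lists, 21 were higher in TAC and none lower against 4.71% and 2.29% of all tested genes. At an unadjusted p under 0.05 in edgeR 44 were higher and 8 lower, against 16.2% and 11.9%, and DESeq2 called 38 and 4, against 11.7% and 7.02%. The number higher fell to 6 with library totals, 8 with limma on log2(FPKM + 1), 7 with the replicate block and 3 without a filter. The shares of all genes called higher in these settings were lower too, at 1.79%, 1.98%, 1.6% and 0.684%. Of the genes named below, Eif2s2, Nap1l1 and Rrp12 passed in all 4 of these settings. Rpl36al, Eif3e, Eif4g2, Riok3 and Mrpl33 passed in none of them, and Vim, Eif3a and Ncl not with library totals, limma or no filter. Of the remaining ribosome components, Rpl36al rose, from 15.2 ± 0.628 to 24.3 ± 3.83 CPM (SD, n = 3; log2 fold change 0.68 ± 0.16, edgeR adjusted p = 0.0469). Fau (0.05 ± 0.24), whose ribosomal protein is made as a fusion, and Rack1 (-0.20 ± 0.16) did not pass. Of 23 other mRNAs known for a TOP start, 5 rose (21.7%, against 4.71% of all tested genes), and the median was 0.29. Among those that rose were Nap1l1, a histone chaperone (1.61 ± 0.28), Vim, vimentin (0.79 ± 0.15), and the initiation factor subunits Eif3a (1.24 ± 0.26) and Eif3e (1.01 ± 0.22).

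Of 49 genes named Eif with a number, the initiation factor list, 10 rose (20.4%, against 4.71% of all tested genes), with a median of 0.13. The list was taken by name alone and was not limited to the factors themselves. Eif2s2, a subunit of the factor that brings the initiator tRNA, measured 8.67, 4.48 and 6.10 CPM in sham and 16.9, 16.7 and 18.3 CPM in TAC (log2 fold change 1.43 ± 0.24, edgeR adjusted p = 0.0251). Eif5b, which joins the subunits (1.08 ± 0.21), Eif4g2 (0.72 ± 0.14) and Eif5 (1.24 ± 0.25) rose as well. Of 11 elongation and release genes only Etf1, the release factor that reads stop codons, rose (0.87 ± 0.18). That is 9.09%, against 4.71% of all tested genes, and the median was -0.11.

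Of 41 ribosome assembly genes 4 rose (9.76%, against 4.71% of all tested genes), with a median of 0.06. They were Rrp12 (0.93 ± 0.13), the nucleolin gene Ncl (1.21 ± 0.24), Pno1 (0.96 ± 0.21) and the kinase gene Riok3 (0.97 ± 0.23). None of 15 genes that control ribosomal protein mRNA, such as those of mTOR signalling, passed in edgeR. At an unadjusted p under 0.05 in edgeR 3 were higher and 3 lower, against 16.2% and 11.9% of all tested genes. Akt1 measured 343 ± 27.3 and 271 ± 22.6 CPM in sham and TAC (SD, n = 3; edgeR adjusted p = 0.146), and Maf1, a repressor of RNA polymerase III, 174 ± 13.9 and 130 ± 9.94 CPM (0.0866). Maf1 passed as lower with DESeq2 (adjusted p = 0.0323) and with limma at a pseudocount of 1 or 0.1 (adjusted p = 0.0492 and 0.0496). Of 78 mitochondrial ribosomal protein genes Mrpl50 (0.91 ± 0.20) and Mrpl33 (0.67 ± 0.17) rose, 2.56% against 4.71% of all tested genes, with a median of -0.03. Of the 201 genes 20 are in more than 1 list, 2 of them among those that rose.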

How the data were processed

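Poly(A) RNA of 6 left ventricle samples was sequenced; per the labels' protocols the kit marks strand. The submitters' processing notes name cutadapt 1.9, HISAT2 2.0.4, StringTie 1.3.4d and GRCm38; the sources used here do not give the annotation release, the strand setting or the filters. Per the file headers, the authors deposited FPKM and count columns per gene. The deposited counts are whole numbers that behave as estimated counts derived from coverage, so counting error understates their uncertainty. For 98.5% of genes with several transcripts and at least 1000 counts, the deposited FPKM equalled counts over the summed exons of all transcripts within 2%. It therefore understates genes with annotated retained introns or extra exons, and levels between genes were compared per kilobase of the shortest principal transcript, a choice made after seeing the data.

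The members and lists were chosen with earlier results of these data known. Groups came from the labels. Raw counts had been assumed; edgeR 4.0.16 (R 4.3.3) was used on the estimated counts, with TMM scaling, estimateDisp, glmQLFit and glmQLFTest over 8795 genes with a mean FPKM of at least 1, and Benjamini-Hochberg adjustment at 0.05. The SE is the fold change over the square root of F. Exact permutation tests used scipy 1.17.1. Lengths, GC content and overlaps came from GENCODE M21 (GRCm38), in which 24547 identifiers were found; 76 of the 88 genes had the same coordinates. Pseudogene records were aligned with blastn 2.17.0. Trends over GC content and length were smoothed by lowess (span 0.3, 3 rounds) and used as offsets. Named genes were those that passed, members of related pairs, the stalk genes and Rpsa, Rps27a, and the 5 at each end of FPKM and of fold change; of other lists, up to 4 that passed, or the 2 highest in FPKM. Rps3a1, Rpl4, Rpl11 and genes named for their level per kilobase or their pseudogene share were added after their values were seen.

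Alternatives were DESeq2 1.42.0, limma 3.58.1 on log2(FPKM + 1) and log2(FPKM + 0.1), other scalings and filters, the replicate number as a block, pseudogene records joined by name or (chosen after seeing the data) by alignment, and leaving out each library. The result of 1 gene is not reported here. In simulated counts for the comparison of TAC and sham over 8795 genes, edgeR called 63 of the 100 genes given a 2-fold change and 98 of the 100 given a 4-fold change. Of its 168 calls, 7 were unchanged genes. The simulated counts were drawn gene by gene, without the shared library shifts and GC trends seen in these data. The share of false calls in the real libraries therefore cannot be read from them.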

Additional observations from a re-analysis of the deposited data

How the results depend on the processing

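All 6 genes that rose kept a positive fold change in the 19 alternatives run (Rpl21 in the 18 that tested it). Rpl23 and Rps24 passed in 12 of the 19 each, Rpl26 in 8, Rpl5 and Rpl7 in 7 each, and Rpl21 in 6 of its 18. The number of ribosomal protein genes called higher, 6 in the main analysis, was 2 with library totals, 11 with DESeq2, 2 with limma at either pseudocount, 0 without a filter on FPKM, 3 with the GC and length trends removed and 0 with those trends removed together with the block; leaving out single libraries gave 0 to 11. Limma also called 2 lower, Rpl3l and Rps4l. Without a filter, 11 were higher and 2 lower at an unadjusted p under 0.05 in edgeR, where the share of all genes was not counted. Of the other translation genes, 21 were called higher and none lower in the main analysis; the counts were 6 and 1 with library totals, 38 and 4 with DESeq2, 8 and 3 with limma (9 and 3 at a pseudocount of 0.1), 3 higher without a filter, 8 with a mean FPKM of 5 or more, 7 with the trends removed, and 4 with the trends and the block. Leaving out single libraries gave 0 to 33 higher and 0 to 6 lower. Of all genes, 4.71% were called higher in the main analysis, 1.79% with library totals, 11.7% with DESeq2 and 1.98% with limma on log2(FPKM + 1). That share was 0.684% without a filter, 2.71% with the trends removed and 1.16% with the trends and the block. It was 0.102% to 9.24% when single libraries were left out. The share of counts, -0.20 percentage points in TAC, was -0.47 of summed FPKM.

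With library totals the median of all genes moved to -0.14 and with limma to -0.13 and -0.16; the ribosomal protein genes stood 0.10, 0.08 and 0.11 above it, against 0.11 in the main analysis. That distance was -0.056 without a filter, 0.26 without TAC replicate 3, -0.018 without sham replicate 1 and -0.015 without TAC replicate 2. Of all calls, 67.3% were higher in the main analysis, 45.5% with library totals and 34.0% with limma.

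With the replicate number as a block, 1 gene was called higher (Rpl23) and the median was 0.10; 7 other translation genes were. Deviations of same-numbered samples from their group means correlated at -0.07, 0.13 and -0.03. Those of differently numbered samples correlated at -0.21 to 0.22, and not every sample correlated best with its own number. With 3 samples per group the deviations cancel within a group. These values therefore cannot decide whether the numbers pair the samples.

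Signs turned for some named genes that did not pass in the main analysis. With library totals, limma at 1, limma at 0.1 and no filter, respectively, Rpl3 had -0.035, -0.053, -0.054 and -0.013, Rplp1 had -0.12, -0.12, -0.12 and -0.069, Rplp2 had -0.064, -0.078, -0.080 and -0.012, Rps15 had -0.083, -0.081, -0.081 and -0.031, Rps27l had -0.061, -0.047, -0.047 and -0.013, Rps27a had -0.084, -0.32, -0.34 and -0.026, Fau had -0.10, -0.096, -0.097 and -0.054. With the trends removed, and then with the block as well, Rpl22l1 had -0.51 and -0.52, Rpl36a had -0.068 and -0.066, Rps27l had -0.50 and -0.49, Rps27a had -0.21 and -0.42. Rpl39 had -0.00075 with the trends removed, and Rps27a -0.22 with the block alone. Rpl10 turned positive on DESeq2 size factors (0.0063), outside the mitochondrial chromosome (0.0015), with DESeq2 (0.0063), above FPKM 5 (0.082) and with the block (0.0085), Rpl7l1 above FPKM 5 (0.041), and Rps12 with pseudogenes joined by name (0.32) or alignment (0.32). Leaving out single libraries gave -0.079 to 0.13 for Rpl10, -0.11 to 0.047 for Rpl7l1, -0.15 to 0.21 for Rplp1, -0.14 to 0.30 for Rplp2, -0.32 to 0.22 for Rps12, -0.11 to 0.28 for Rps15, -0.018 to 0.81 for Rps27, -0.80 to 0.38 for Rps27a, -0.094 to 0.27 for Rps27l, -0.12 to 0.22 for Fau. The causes were not tested.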
